A study of Homo sapiens with 28 samples.

Results

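Azacitidine and decitabine were compared at matched doses in A549, a human lung adenocarcinoma line, by the expression of 8024 genes. The comparison took every A549 array labelled with either drug, which gave 12 of the 28 arrays of the series: 6 for azacitidine and 6 for decitabine, with 2 arrays of each drug at each of 0.3, 1 and 3 µM. The groups were A549 with azacitidine at 0.3, 1 and 3 µM, A549 with decitabine at 0.3, 1 and 3 µM, and A549 with the vehicle DMSO, 2 arrays each. The same 7 groups of H1299, a lung carcinoma line, were used where the drug difference was set against another line. Exposure to either drug lasted 48 h, with drug renewed daily, and A549 and H1299 were each a single established line. RNA was measured on 1-colour Affymetrix expression arrays of 22277 probe sets, which give 1 hybridisation signal per probe set. The labels do not say whether the 2 arrays of a group came from separate cultures, so every p-value measures the spread between these samples, which may be technical. Replicate 1 of decitabine at 3 µM is labelled a repeat.

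Azacitidine is a ribonucleoside analog of cytidine, and decitabine is its deoxyribonucleoside counterpart. Cells phosphorylate azacitidine through uridine-cytidine kinase and place most of it in RNA, and a smaller part reaches DNA after reduction by ribonucleotide reductase. Decitabine is phosphorylated by deoxycytidine kinase and enters DNA alone. In DNA both analogs capture DNA methyltransferases, so that methylation is lost as cells replicate, and genes silenced by methylation, the cancer-testis genes of the germline among them, can be transcribed again. The question here was where 2 drugs that differ in the sugar of the nucleoside gave different transcript levels in the same cells at the same dose.

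The deposited signals shared a scaling target, and their 25th percentile lay between 19.37 and 25.66 on the azacitidine arrays, between 21.55 and 24.27 on the decitabine arrays and between 20.1 and 28.25 on the vehicle arrays. The A549 label was set against its markers. All 5 epithelial markers were measured, and CDKN2A, which A549 is known to lack, gave 33.65 to 106.1 on A549 arrays against 744.9 to 1658 on H1299 arrays. Of 12 leukocyte markers on the array, 1 (ITGAM) exceeded the array median on at least 2 A549 arrays, and of 4 endothelial markers 0 did. Of 6 fibroblast markers 2 did, COL1A1 on 14 A549 arrays and THY1 on 10. The summed leukocyte signal was 240.9 to 420.5 with azacitidine, 334 to 474 with decitabine and 387.9 to 412.7 with vehicle. The summed signal of the 5 epithelial markers was 12610 to 21270 with azacitidine, 22560 to 26920 with decitabine and 18950 to 21360 with vehicle. In a bulk sample, fewer cells of a type and less RNA per cell cannot be told apart. The ratio of the 3' to the 5' probe set of ACTB is a sign of RNA quality. On the log2 scale it was 1.72 to 2.42 with azacitidine, 1.77 to 2.29 with decitabine and 1.62 to 1.76 with vehicle. With azacitidine it rose with dose, from 1.717 and 1.86 at 0.3 µM to 2.057 and 2.259 at 1 µM and 2.293 and 2.421 at 3 µM. Decitabine gave 1.844 and 1.787, 1.844 and 2.294, and 2.055 and 1.773. At 3 µM both azacitidine arrays were thus above both decitabine arrays. The part of this ratio in the drug and dose differences was not tested. Azacitidine replicate 1 at 3 µM and vehicle replicate 1 had the highest 25th percentiles. Without these arrays and the repeated decitabine array, 3943 genes differed between the drugs over the doses, against 4366 with them, and the stress response, cancer-testis, p53 and epithelial lists described below had 39, 0, 1 and 1 members higher and 0, 15, 26 and 13 lower.

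The drugs differed in 4366 of the 8024 genes over the 3 doses (54.4%), of which 2236 were higher with azacitidine (27.9%) and 2130 lower (26.5%). With each array centred on its median the split was 2016 higher and 2309 lower, so which direction held more genes depended on the scaling. A gene was called where a limma fit of log2(signal + 32), with 1 mean per group, gave an adjusted p under 0.05, and a log2 difference below is azacitidine minus decitabine on that scale, which draws dim genes toward 0. The difference was 6 against 6 arrays, balanced over dose. A fit of the 12 drug-treated arrays alone with dose as an additive block called 3729 genes, 3672 of them the same. Most differences were small: 189 genes also differed by at least 1 on the log2 scale, 33 of them higher and 156 lower with azacitidine. Among the called genes, both azacitidine arrays lay above both decitabine arrays at every dose in 1098 (13.7% of all genes tested) and below them in 1219 (15.2% of all genes tested). The median difference of all genes was 0.02.

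The separation of the drugs widened with dose. At 0.3 µM 457 genes differed (5.70%), 166 higher with azacitidine (2.07%) and 291 lower (3.63%). At 1 µM 2753 differed (34.3%), with 1314 higher (16.4%) and 1439 lower (17.9%), and at 3 µM 4045 did (50.4%), with 2132 higher (26.6%) and 1913 lower (23.8%), or 1717 and 2165 with each array centred on its median. Adjusting the p-values over the 3 dose pairs together gave 892, 2656 and 3697 genes at the 3 doses. At all 3 doses 134 genes were called higher and 234 called lower with azacitidine. Each single dose rests on 2 arrays per drug, and leaving out any 1 of the 4 arrays at 0.3 µM left 173 to 197 genes called there.

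Against the 2 vehicle arrays, which both drug comparisons share, 2254 genes differed with azacitidine over the doses (28.1%), 1204 higher (15%) and 1050 lower (13.1%), or 1074 and 1147 with each array centred on its median. With decitabine 1902 differed (23.7%), 1090 higher (13.6%) and 812 lower (10.1%). Without vehicle replicate 1 these counts were 1395 and 984. Of the 2236 genes higher with azacitidine than with decitabine, 738 were called higher with azacitidine alone, 423 lower with decitabine alone and 99 in opposite directions. Of the 2130 lower ones, 609 were called lower with azacitidine alone, 597 higher with decitabine alone and 129 in opposite directions. In 888 and 691 of them neither drug passed against vehicle. Among genes that differed from vehicle by at least 1 on the log2 scale, azacitidine had 40 higher and 54 lower, and decitabine 97 higher and 5 lower.

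The 5 largest differences toward azacitidine were in genes of the integrated stress response, the programme in which kinases that phosphorylate eIF2 slow translation while the factor ATF4 is made and raises genes for amino acid supply. Of 49 genes listed, 44 were measured, and 40 were higher with azacitidine over the doses and 0 lower, with a median difference of 0.79. Among all genes tested, 27.9% were higher and 26.5% lower. The count was 25 higher and 2 lower at 0.3 µM, 39 and 0 at 1 µM, and 39 and 0 at 3 µM, where the median was 1.06. Against vehicle, 36 members were higher and 1 lower with azacitidine, and 4 were higher and 9 lower with decitabine. The shares of all genes tested were 15% higher and 13.1% lower with azacitidine, and 13.6% and 10.1% with decitabine. The 4 members that did not pass over the doses were KLHL24 (-0.22), CTH (-0.03), SLC38A2 (0.08) and ADM2 (0.16).

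ASNS, which makes asparagine and is a known ATF4 target, gave signals of 4226 and 4089, 6412 and 6657, and 5874 and 6266 with azacitidine at 0.3, 1 and 3 µM. With decitabine it gave 1872 and 1696, 1430 and 1409, and 1374 and 1260, and with vehicle 1830 and 1856. Every azacitidine array was above every other A549 array, and at 1 and 3 µM every decitabine array was below vehicle. The difference over doses was 1.85 (SE 0.0403, adjusted p = 1.94e-18), with ASNS lower than vehicle by -0.30 with decitabine (adjusted p = 0.000664).

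The promoter of ASNS is shown because it holds the 8-letter element TGATGNAA to which C/EBP and ATF family factors are known to bind. The sequence is RefSeq's, 250 bases before to 50 after a transcription start, minus strand, chr7:97872359-97872658 of GRCh38.p14, 5′ to 3′. The capitals mark the element, which begins 68 bases before the start.
ASNS: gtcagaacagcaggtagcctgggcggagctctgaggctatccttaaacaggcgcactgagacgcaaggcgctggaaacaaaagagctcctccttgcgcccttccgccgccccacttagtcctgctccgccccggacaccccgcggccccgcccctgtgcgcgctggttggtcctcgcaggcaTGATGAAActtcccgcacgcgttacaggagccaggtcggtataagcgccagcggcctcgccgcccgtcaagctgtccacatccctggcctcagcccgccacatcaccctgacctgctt
Of the 44 measured stress response genes, 38 had a promoter in the RefSeq table, with 60 promoters in all, and TGATGNAA was found on either strand in 14 of the promoters (23.3%), belonging to 14 genes (36.8%). Among the genes tested, 6657 had 10013 promoters counted, and the letters were in 203 of these (2.03%), belonging to 189 genes (2.84%). The stress response list was written from general knowledge, so it may favour genes already known to hold the element. Among the 12 genes with the largest differences toward azacitidine, 1 of 22 promoters held them (4.55%). A match describes the letters in the window and no binding was measured.

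NIBAN1, a stress-induced regulator of translation, had the largest difference in that direction. It gave 111 and 108, 926 and 915, and 1731 and 1791 with azacitidine at 0.3, 1 and 3 µM, against 47.6 and 56.8, 42.3 and 59.7, and 63.8 and 75.4 with decitabine. Vehicle gave 75.7 and 60.9. The azacitidine arrays climbed with dose and lay above every other array. The decitabine arrays lay below both vehicle arrays at 0.3 and 1 µM and within their range at 3 µM. The difference was 2.81 (SE 0.0636, adjusted p = 2.31e-18), and the difference at 3 µM exceeded that at 0.3 µM by 3.39 (adjusted p = 7.57e-12).

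TRIB3, a pseudokinase induced by ATF4, gave 2113 and 1983, 7457 and 6582, and 7004 and 7820 with azacitidine at the 3 doses. Decitabine gave 1324 and 1314, 1069 and 1138, and 1061 and 1039, and vehicle gave 1159 and 1187. Every azacitidine array was above every other array, and the azacitidine levels at 1 and 3 µM overlapped each other. The difference over doses was 2.01 (SE 0.0486, adjusted p = 5.80e-18). The glycoprotein hormone gene STC2 (2.0), the stress-induced chromatin protein gene NUPR1 (1.80) and DDIT3, which encodes the transcription factor CHOP (1.34), were also higher. DDIT3 had 255 and 263 with azacitidine at 0.3 µM against 197 and 214 with decitabine, which did not pass (0.29, interval -0.03 to 0.61, adjusted p = 0.323), and passed at 1 µM (1.73) and 3 µM (1.99).

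**Figure D1:**
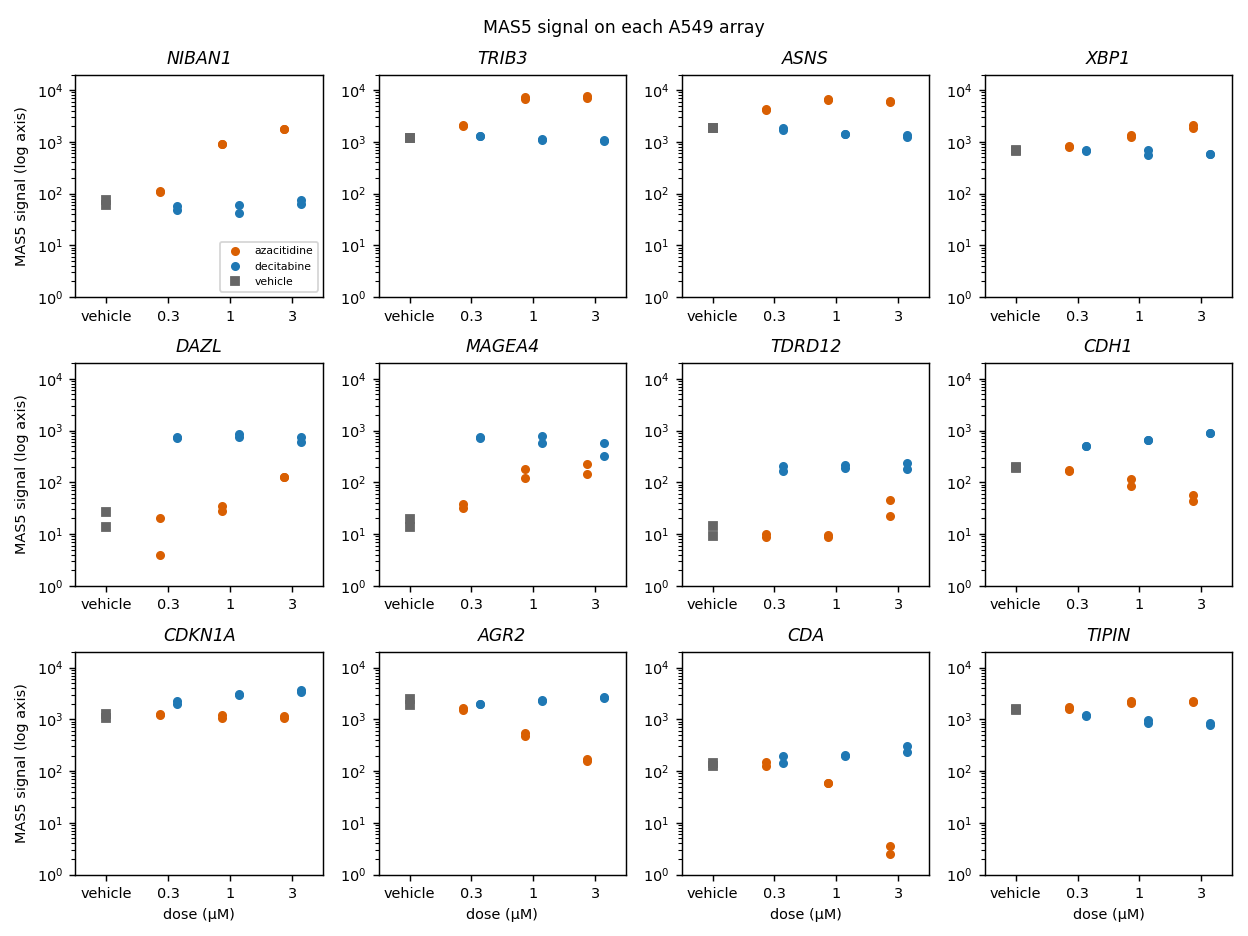
MAS5 signal (log axis) of 12 genes on each A549 array against dose in µM, with azacitidine in orange, decitabine in blue and vehicle as grey squares at the low end. NIBAN1, TRIB3, ASNS and XBP1 separate upward with azacitidine, DAZL, MAGEA4, TDRD12, CDH1 and CDKN1A separate upward with decitabine, and AGR2 and CDA drop with azacitidine to 169 and 158 and to 3.52 and 2.46 at 3 µM.

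Genes of protein folding in the endoplasmic reticulum moved less and mostly the other way. Of 20 measured, 2 were higher with azacitidine and 11 lower, against 27.9% and 26.5% of all genes tested, with a median of -0.30. The 2 higher were XBP1, a factor of the unfolded protein response (0.99, SE 0.0732, adjusted p = 4.21e-10), and ATF6, a sensor of the same response (0.36). The disulfide isomerase PDIA4 gave 1116 and 1295, 853 and 927, and 586 and 695 with azacitidine, against 1947 and 2081, 2030 and 2068, and 2217 and 2038 with decitabine, with 1670 and 1968 in vehicle. Its difference was -1.20 (SE 0.0665, adjusted p = 4.68e-12), and every azacitidine array lay below both vehicle arrays. HSPA5, the main chaperone of the compartment, did not pass over doses (-0.02, interval -0.10 to 0.07) and was lower at 0.3 µM (-0.39, adjusted p = 0.00217) and higher at 3 µM (0.20, adjusted p = 0.0266). The lectin chaperone CALR (-1.04) and the isomerase PDIA3 (-0.81) were lower too. Against vehicle, 1 member of the list was higher and 7 lower with azacitidine, and 1 was higher and 0 lower with decitabine. The shares of all genes tested were 15% higher and 13.1% lower with azacitidine, and 13.6% and 10.1% with decitabine.

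Ribosome biogenesis genes, which process ribosomal RNA in the nucleolus, were higher with azacitidine in 30 of 42 and lower in 1 (UBTF, a factor of RNA polymerase I, -0.26). Their median difference was 0.27 over the doses and 0.08, 0.34 and 0.44 at 0.3, 1 and 3 µM. The helicase DDX10 gave 1523 and 1488, 3140 and 3498, and 4493 and 4974 with azacitidine, against 1176 and 1311, 1413 and 1523, and 1643 and 1512 with decitabine and 1678 and 1613 with vehicle. At 1 and 3 µM its azacitidine arrays stood above every other array, and at 0.3 µM they lay below vehicle (difference over doses 1.00, SE 0.0551, adjusted p = 4.26e-12). UTP14A (0.76), RRP9 (0.69) and NOLC1 (0.66), which act in the assembly of the small subunit or its small nucleolar particles, were higher as well. Of 47 cytosolic ribosomal protein genes, 5 were higher and 0 lower. Their median was 0.05 and became -0.01 with the array's 25th percentile as a covariate. Beside both lists, 27.9% of all genes tested were higher and 26.5% lower. No test compared the biogenesis genes with the structural genes.

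Cancer-testis and germline genes, which are silent in most adult tissues and carry methylated promoters there, had the lowest median of the 22 lists at 0.3 µM. Of 59 listed, 19 were measured, and over the doses 0 were higher with azacitidine and 15 lower, with a median of -0.89. Among all genes tested, 27.9% were higher and 26.5% lower. A gene dim with vehicle and azacitidine could pass the filter through its decitabine arrays. The counts, medians and rank of this list may therefore favour members high with decitabine. Without a filter on dim probe sets 35 were measured, with 18 lower and a median of -0.27. The counts lower were 13, 14 and 10 at 0.3, 1 and 3 µM, and the medians were -1.49, -0.88 and -0.25. Many of these genes have near-identical copies (MAGEA, SSX, GAGE and SPANX families), so a probe set may read more than 1 of them. The 4 that did not pass were MAGEC2 (-0.23), TKTL1 (-0.12), MAGEA10 (0.05) and GAGE1 (0.07).

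DAZL, an RNA-binding protein of germ cells, had the largest difference in this direction on the log2(signal + 32) scale (-3.33, followed by LY6D with -3.25), an order that depended on the pseudocount. With 1 in place of 32, the log2 difference over doses of LY6D was -6.03 and the log2 difference over doses of DAZL was -4.39. With the higher pseudocount that was run, the log2 difference over doses of AQP3 was -2.50 and that of DAZL -2.27. It gave 3.97 and 20.1, 35.5 and 28.2, and 128.2 and 128.8 with azacitidine at 0.3, 1 and 3 µM. Decitabine gave 711 and 752, 876 and 756, and 609 and 743, and vehicle 27.2 and 13.7. The decitabine levels at 0.3 and 3 µM overlapped, while azacitidine at 0.3 µM overlapped vehicle and its 2 highest arrays were those at 3 µM. The difference over doses was -3.33 (SE 0.0936, adjusted p = 6.18e-17), and the drugs were closer at 3 µM than at 0.3 µM by 2.0 (adjusted p = 3.27e-06).

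MAGEA4, an X-linked cancer-testis antigen, gave 32.1 and 38.2, 184 and 119, and 230 and 146 with azacitidine, against 722 and 740, 787 and 567, and 326 and 587 with decitabine and 19.2 and 13.8 with vehicle. The drugs did not overlap at any dose, and the lowest decitabine and the highest azacitidine array were both at 3 µM (difference over doses -2.20, adjusted p = 1.65e-12, and 3 µM minus 0.3 µM 2.38, adjusted p = 4.30e-06). TDRD12, a tudor protein of the piRNA pathway, gave 10.1 and 8.58, 9.6 and 8.59, and 22.4 and 45.5 with azacitidine, against 168 and 204, 190 and 214, and 232 and 181 with decitabine and 14.5 and 9.08 with vehicle. At 0.3 and 1 µM its azacitidine arrays were within or below the vehicle range (difference -2.26, adjusted p = 1.02e-15). SPANXB1, a sperm protein, was lower by -2.25 (adjusted p = 2.55e-11), and here azacitidine also stood above vehicle (1.55) with decitabine further above it (3.80).

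The promoters of these germline genes are shown because loss of DNA methylation acts at CG pairs, and the members with the largest differences differ in how many they hold. Sequences are RefSeq's, GRCh38.p14, 250 bases before to 50 after a transcription start, 5′ to 3′, with CG pairs in capitals. They lie at chr3:16605374-16605673 on the minus strand (DAZL, 33 pairs), chr19:32719517-32719816 on the plus strand (TDRD12, 26 pairs) and chrX:141002344-141002643 on the plus strand (SPANXB1, 9 pairs).
DAZL: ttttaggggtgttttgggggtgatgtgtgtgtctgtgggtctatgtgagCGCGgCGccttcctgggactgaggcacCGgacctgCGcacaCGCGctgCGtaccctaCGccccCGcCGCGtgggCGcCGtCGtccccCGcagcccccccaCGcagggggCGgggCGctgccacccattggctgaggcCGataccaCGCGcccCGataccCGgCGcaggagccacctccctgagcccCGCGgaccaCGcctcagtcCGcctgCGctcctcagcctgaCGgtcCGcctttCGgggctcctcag
TDRD12: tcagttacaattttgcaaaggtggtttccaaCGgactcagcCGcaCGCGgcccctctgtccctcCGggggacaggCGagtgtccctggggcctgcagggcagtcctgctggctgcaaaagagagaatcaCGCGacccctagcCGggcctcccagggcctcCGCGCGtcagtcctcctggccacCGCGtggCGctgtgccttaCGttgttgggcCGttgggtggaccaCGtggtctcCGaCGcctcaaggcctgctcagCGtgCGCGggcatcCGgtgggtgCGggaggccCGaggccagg
SPANXB1: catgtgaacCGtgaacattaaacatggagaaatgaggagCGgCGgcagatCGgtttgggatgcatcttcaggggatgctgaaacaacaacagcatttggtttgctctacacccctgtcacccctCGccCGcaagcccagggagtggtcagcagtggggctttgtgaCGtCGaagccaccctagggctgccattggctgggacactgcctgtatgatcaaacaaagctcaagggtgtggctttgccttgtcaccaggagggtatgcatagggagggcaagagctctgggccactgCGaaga
Of the 19 measured genes, 15 had 26 promoters in the table, with a median of 13 CG pairs (range 1 to 33). The median was 25 (range 0 to 69) in the 10013 promoters of 6657 of the genes tested. Over the 12 genes with the largest differences toward decitabine, 9 genes had 15 promoters with a median of 13. TGATGNAA was in 0 of the 26 and 0 of the 15, which says only that these letters are not in these windows. Methylation was not measured on these arrays.

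**Figure D2:**
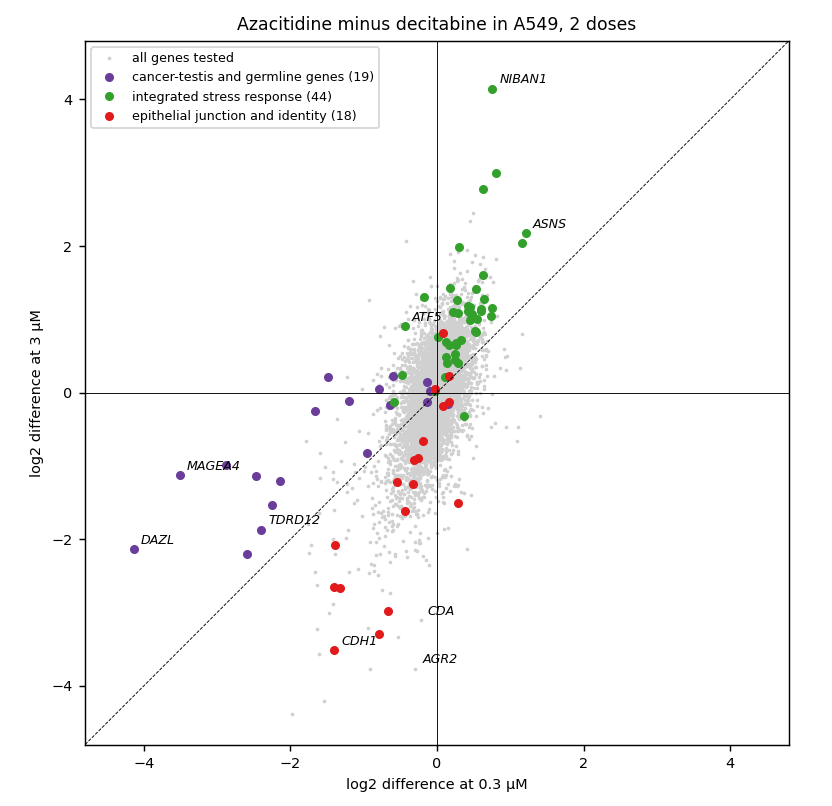
Log2 difference, azacitidine minus decitabine, at 3 µM (vertical) against 0.3 µM (horizontal) for each of 8016 of the 8024 genes in A549. Cancer-testis genes are in purple, stress response genes in green and epithelial genes in red, and the diagonal marks equal differences. Of 19 cancer-testis genes, the 13 called lower at 0.3 µM lie left of 0 (DAZL at -4.14 and -2.13, above the diagonal), whereas many stress response genes (NIBAN1 at 0.75 and 4.14) and many epithelial genes (CDH1 at -1.41 and -3.51) spread along the vertical axis.

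Target genes of the p53 pathway, which answers DNA damage with arrest and apoptosis, were lower with azacitidine. Of 33 measured, 25 were lower and 2 higher, against 26.5% and 27.9% of all genes tested, with a median of -0.56. The 2 higher were TNFRSF10B, a death receptor (0.13), of which another probe set was called lower (-0.34), and PLK2, a kinase (0.18). The counts lower were 12, 23 and 20 at 0.3, 1 and 3 µM. Against vehicle, azacitidine had 5 members higher and 6 lower, and decitabine 24 higher and 0 lower. The shares of all genes tested were 15% higher and 13.1% lower with azacitidine, and 13.6% and 10.1% with decitabine. The azacitidine counts were thus near the shares of all genes, and the decitabine counts were not.

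CDKN1A, which encodes the cell cycle inhibitor p21, gave 1215 and 1269, 1071 and 1209, and 1044 and 1151 with azacitidine. Decitabine gave 2005 and 2221, 2982 and 3122, and 3767 and 3460, and vehicle 1078 and 1259. The azacitidine arrays overlapped vehicle at every dose, and the decitabine arrays climbed with dose above all others. The difference was -1.28 (SE 0.0551, adjusted p = 6.97e-14). Azacitidine minus vehicle was -0.01, with an interval of -0.17 to 0.15 (adjusted p = 0.943), and decitabine minus vehicle was 1.27 (adjusted p = 1.62e-10).

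The phosphatase PPM1D (-1.37), the damage-recognition protein DDB2 (-1.30) and the smooth muscle actin ACTA2 (-1.87), all known p53 targets, were lower with azacitidine than with decitabine. Against vehicle, azacitidine was lower for DDB2 (-0.36, adjusted p = 0.00565) and ACTA2 (-0.42, adjusted p = 0.00453), unlike for CDKN1A and PPM1D, where it did not pass. PPM1D gave 582 and 552, 476 and 599, and 641 and 688 with azacitidine, against 1015 and 1115, 1644 and 1703, and 2284 and 2035 with decitabine and 554 and 550 with vehicle. Every decitabine array was above every azacitidine and vehicle array. MDM2, a ubiquitin ligase of the pathway, differed over doses (-0.50, adjusted p = 0.00131) and at 1 µM (-0.85, adjusted p = 0.00329). At 0.3 µM (interval -0.70 to 0.17) and 3 µM (interval -0.83 to 0.03) it did not pass.

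Genes of the G1/S transition and DNA replication were higher with azacitidine in 31 of 51 and lower in 10, with a median of 0.18. Against vehicle, azacitidine had 6 members higher and 9 lower, and decitabine 0 higher and 28 lower. The shares of all genes tested were 15% higher and 13.1% lower with azacitidine, and 13.6% and 10.1% with decitabine. Here too the azacitidine counts were near the shares of all genes. TIPIN, which stabilises replication forks, gave 1623 and 1755, 2288 and 2085, and 2134 and 2278 with azacitidine, against 1197 and 1139, 957 and 860, and 839 and 789 with decitabine and 1505 and 1604 with vehicle. Vehicle lay between the drugs (difference 1.05, SE 0.0447, adjusted p = 5.85e-14). The licensing factor CDT1 (0.96), the primase subunit PRIM1 (0.86) and the helicase subunit MCM2 (0.72) were higher too. The mitotic list divided, with 13 of 61 higher and 23 lower, against 27.9% and 26.5% of all genes tested, and a median of -0.06. The same shares stand beside the G1/S counts between the drugs and those of 14 clustered histone genes, of which 0 were higher and 7 lower.

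Of 32 epithelial junction and keratin genes listed, 18 were measured. With azacitidine 13 were lower and 2 higher, against 26.5% and 27.9% of all genes tested, with a median of -0.78. The 2 higher were the junction proteins OCLN (0.48) and TJP1 (0.16). A member dim with vehicle and azacitidine could pass the filter through its decitabine arrays. The counts and medians of this list may therefore favour members high with decitabine. The median was -0.32, -0.91 and -1.23 at 0.3, 1 and 3 µM. CDH1, the adhesion protein E-cadherin, gave 176 and 168, 83.2 and 118, and 58.0 and 43.1 with azacitidine, against 502 and 515, 660 and 664, and 901 and 908 with decitabine and 191 and 199 with vehicle. All azacitidine arrays were below vehicle and all decitabine arrays above it, each further away at the higher doses. The difference was -2.44 (SE 0.0972, adjusted p = 2.18e-14).

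EPCAM, an epithelial adhesion molecule, gave 212 and 196, 129 and 169, and 177 and 160 with azacitidine, against 555 and 560, 1058 and 897, and 1272 and 1200 with decitabine and 234 and 215 with vehicle. Here the separation lay mostly on the decitabine side (azacitidine minus vehicle -0.33, adjusted p = 0.0903, and decitabine minus vehicle 1.83, adjusted p = 8.38e-09). KRT19, a keratin of simple epithelia (-2.08), and the mucin MUC1 (-2.11) were also lower with azacitidine. The water channel AQP3 (-3.18, SE 0.0827, adjusted p = 1.57e-17) gave 65.3 and 54.0 with azacitidine at 3 µM against 1681 and 1622 with decitabine and 303 and 284 with vehicle. LY6D, a surface protein of squamous epithelium, stayed at 2.12 to 5.17 with azacitidine, under the 25th percentile of every array, and gave 92.3 and 134, 333 and 323, and 744 and 721 with decitabine (difference -3.25, adjusted p = 2.84e-16).

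Mesenchymal and matrix genes were lower with azacitidine in 15 of 23 and higher in 2, against 26.5% and 27.9% of all genes tested. The 2 higher were the repressors ZEB2 (0.73) and ZEB1 (0.42), and the median was -0.49. SPARC, a matrix glycoprotein, gave 374 and 336, 170 and 168, and 81.9 and 99.7 with azacitidine, against 1006 and 1361, 1030 and 1226, and 1166 and 1069 with decitabine and 358 and 369 with vehicle (difference -2.46, SE 0.112, adjusted p = 1.88e-13). FN1, fibronectin, gave 2091 and 2102, 846 and 823, and 720 and 760 with azacitidine, against 2424 and 2531, 2652 and 3107, and 3425 and 2912 with decitabine and 2873 and 3181 with vehicle. At 1 and 3 µM SPARC lay below vehicle with azacitidine and above it with decitabine, and at 0.3 µM azacitidine overlapped vehicle. FN1, read by a probe set that can match related sequences, was below vehicle on every azacitidine array (difference between drugs -1.34, adjusted p = 1.32e-08), and decitabine minus vehicle was -0.10 (interval -0.47 to 0.27). The summed signal of 6 fibroblast markers was 359.3 to 474.6 with azacitidine, 410.8 to 605.9 with decitabine and 559.7 to 598.1 with vehicle, and its part in these differences was not tested.

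A549 also transcribes genes of secretory cells, many of them for secreted proteins of a liver type. Of 11 measured, 8 were lower with azacitidine and 0 higher, against 26.5% and 27.9% of all genes tested, with a median of -0.78. AGR2, a disulfide isomerase of secretory cells, gave 1528 and 1665, 482 and 542, and 169 and 158 with azacitidine, against 1977 and 1952, 2362 and 2224, and 2731 and 2537 with decitabine and 2491 and 1932 with vehicle. Azacitidine arrays were below vehicle at every dose and lowest at 3 µM, and decitabine lay within the vehicle range at 0.3 and 1 µM and above it at 3 µM (difference -2.05, SE 0.0695, adjusted p = 1.68e-15, and at 0.3 µM -0.29, interval -0.55 to -0.04, adjusted p = 0.176). The fibrinogen chains FGB (-1.41) and FGA (-1.26) and complement C3 (-1.30) were lower. Against vehicle, azacitidine had 7 members lower and 0 higher, and decitabine 0 lower and 1 higher. The shares of all genes tested were 13.1% lower and 15% higher with azacitidine, and 10.1% and 13.6% with decitabine.

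Cholesterol synthesis genes were lower with azacitidine in 14 of 17 and higher in 0, against 26.5% and 27.9% of all genes tested, with a median of -0.38. Of them 1 passed at 0.3 µM, 12 at 1 µM and 12 at 3 µM, where 5.70%, 34.3% and 50.4% of all genes tested did. ACAT2, which condenses acetyl units at the start of the pathway, gave 730 and 790, 404 and 419, and 268 and 289 with azacitidine, against 930 and 961, 942 and 951, and 1081 and 1050 with decitabine and 901 and 794 with vehicle (difference -1.09, SE 0.0445, adjusted p = 3.12e-14). Azacitidine arrays were below vehicle at every dose. The sterol reductase TM7SF2 (-0.84), the sterol oxidase MSMO1 (-0.78) and the isomerase EBP (-0.62) were lower as well. For SQLE (-0.36), 1 of its other probe sets was called in the opposite direction (0.26).

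Interferon-stimulated genes were lower with azacitidine in 16 of 25 and higher in 2 (SP100, 0.53, and IFIT5, 0.37), with a median of -0.26. With a filter at the 75th percentile of signal 6 members were measured and 4 were lower. IFITM3, which blocks virus entry, gave 201 and 173, 59.1 and 86.4, and 19.0 and 37.7 with azacitidine, against 208 and 202, 201 and 275, and 255 and 292 with decitabine and 31.4 and 43.6 with vehicle. At 0.3 µM both drugs were above vehicle and the difference did not pass (-0.11, interval -0.43 to 0.20), and at 3 µM azacitidine overlapped vehicle (difference over doses -1.28, adjusted p = 1.14e-10, and 3 µM minus 0.3 µM -2.24, adjusted p = 3.43e-07). IFIT1 (-1.20), ISG15 (-0.75) and IFITM2 (-0.74) were lower. Antigen presentation genes were lower in 8 of 15 and higher in 1 (PSMB10, 0.18), led by the peptide transporter TAP1 (-0.72). Beside both lists, 26.5% of all genes tested were lower and 27.9% higher over the doses.

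Of 22 chemokine and NF-kB genes, 10 were lower with azacitidine and 2 higher, against 26.5% and 27.9% of all genes tested. CCL20, a chemokine for CCR6-bearing cells, gave 9.79 and 12, 53.4 and 58.8, and 21.7 and 78 with azacitidine, against 119 and 107, 212 and 211, and 219 and 251 with decitabine and 15 and 11.1 with vehicle (difference -1.67, adjusted p = 5.53e-10). CXCL2, a neutrophil chemokine, gave 225 and 203, 503 and 510, and 737 and 925 with azacitidine, against 140 and 155, 166 and 155, and 135 and 141 with decitabine and 212 and 201 with vehicle (difference 1.43, adjusted p = 1.08e-11). CCL20 was higher with decitabine at each dose, and CXCL2 fell below vehicle with decitabine (-0.41, adjusted p = 0.0160) and rose above it with azacitidine (1.02). CXCL5 (0.47) was the other gene higher.

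NRF2 targets, which defend against oxidants, were higher with azacitidine in 11 of 27 and lower in 4, against 27.9% and 26.5% of all genes tested. HMOX1, haem oxygenase, gave 3356 and 3269, 4133 and 4684, and 5261 and 5244 with azacitidine, against 2534 and 2420, 1638 and 1807, and 1815 and 1483 with decitabine and 2768 and 3429 with vehicle (difference 1.14, adjusted p = 1.82e-09). GPX2, a glutathione peroxidase of epithelia, gave 3052 and 3157, 990 and 937, and 509 and 533 with azacitidine, against 4430 and 4581, 4306 and 4905, and 5993 and 5081 with decitabine and 2687 and 3011 with vehicle (difference -2.03, adjusted p = 3.19e-11). Each gene lay on opposite sides of vehicle with the 2 drugs at 1 and 3 µM. OSGIN1, a growth inhibitor, had the largest difference upward (1.47), and the aldehyde dehydrogenase ALDH3A1 (-1.35), EPHX1 (-0.62) and TKT (-0.37) were the other genes lower.

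Genes that take up, activate or break down the drugs were higher with azacitidine in 9 of 23 and lower in 6 over the doses. Of all genes tested, 27.9% were higher and 26.5% lower. At 0.3 µM 0 of 23 passed, where 5.70% of all genes did. CDA, the deaminase that inactivates both nucleosides, gave 151 and 126, 58.1 and 58.4, and 3.52 and 2.46 with azacitidine, against 143 and 192, 194 and 203, and 238 and 303 with decitabine and 125 and 144 with vehicle. It overlapped at 0.3 µM and was under the 25th percentile of signal with azacitidine at 3 µM, where the difference was -3.10 (SE 0.249, adjusted p = 2.64e-09). The pyrimidine synthesis enzymes CTPS1 (0.67) and CAD (0.51) and the nucleotidase NT5C (0.54) were higher with azacitidine.

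DCK, the kinase that activates decitabine, was not called over the doses (0.11, interval -0.03 to 0.26, adjusted p = 0.184), nor was the nucleoside transporter SLC29A2 (0.12, interval -0.11 to 0.34) or the reductase subunit RRM1 (0.04, interval -0.07 to 0.14). These intervals leave room for differences of up to their bounds. The reductase subunit RRM2 (-0.19), thymidylate synthase TYMS (-0.26), the deaminase DCTD (0.34) and the transporter SLC29A1 (0.24) passed. SLC29A1 lost its call under 4 settings, among them without decitabine replicate 1 at 1 µM and without the repeated decitabine array at 3 µM. Of the DNA methyltransferases, the maintenance enzyme DNMT1 gave 1357 and 1318, 1425 and 1411, and 1328 and 1284 with azacitidine, against 1173 and 1306, 1232 and 1184, and 1119 and 1135 with decitabine and 1458 and 1420 with vehicle (difference 0.18, adjusted p = 0.000675). The drugs did not overlap at any dose for DNMT1 and the difference was small. The de novo enzymes went in opposite directions, with DNMT3A higher by 0.52 (adjusted p = 2.50e-05) and DNMT3B lower by -0.45 (adjusted p = 3.22e-05). Of 10 measured genes of the methylation machinery, 4 were higher and 2 lower, and UHRF1, UCK1 and UCK2 were not analysed here. Among other lists, oxidative phosphorylation genes were higher in 4 of 52 and lower in 19, and housekeeping genes higher in 1 of 21 and lower in 8. Beside these 3 lists, 27.9% of all genes tested were higher and 26.5% lower.

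**Figure D3:**
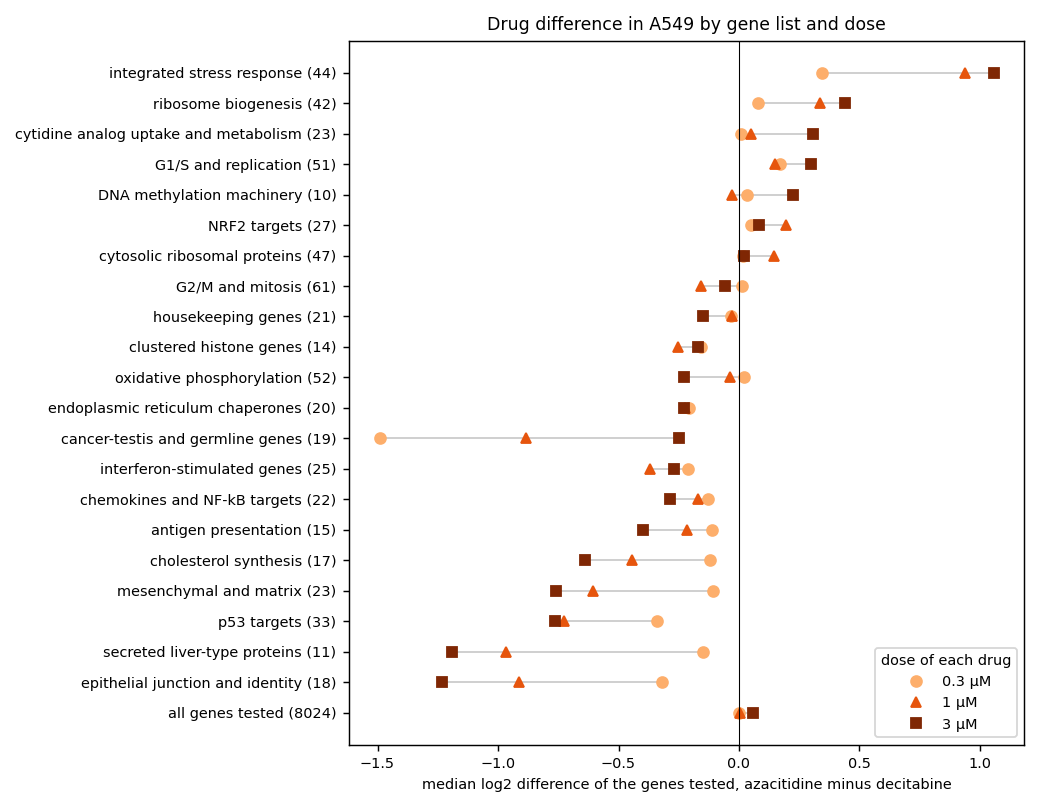
Median log2 difference, azacitidine minus decitabine, of the measured genes of each list (number in brackets) at 0.3 (circle), 1 (triangle) and 3 µM (square), with all genes tested at the foot. The stress response median reaches 1.06 and the epithelial median -1.23 at 3 µM, while the cancer-testis median is farthest from 0 at 0.3 µM (-1.49). The epithelial and cancer-testis medians may favour members high with decitabine, which could pass the filter through those arrays.

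The difference between the drugs depended on dose in 1843 genes (23.0%), by a test of the difference at 3 µM minus that at 0.3 µM, 959 of them positive and 884 negative. With each array centred on its median the split was 704 positive and 1102 negative. Stress response genes had 31 positive and 0 negative, ribosome biogenesis genes 21 and 0, and cancer-testis genes 10 and 0. Epithelial genes had 0 positive and 10 negative, p53 targets 4 and 16, and secreted proteins 0 and 7. The largest shifts were NIBAN1 (3.39), the glycolytic kinase HK2 (2.49), MAGEA4 (2.38), STC2 (2.19), EEF2KMT, a methyltransferase that acts on elongation factor 2 (2.19), and TRIB3 (2.16) upward, and AGR2 (-3.47), CDA (-2.88), SERPINF1, a secreted anti-angiogenic serpin (-2.86), GPX2 (-2.80), AQP3 (-2.66) and TSPAN1, an epithelial tetraspanin (-2.54), downward. An upward shift is a growing azacitidine excess for NIBAN1 and a closing decitabine excess for MAGEA4. HK2 gave 41.8 and 39.4, 192 and 200, and 405 and 434 with azacitidine, against 63.3 and 66.6, 44.9 and 60.8, and 63.4 and 89.0 with decitabine and 49.6 and 12.4 with vehicle.

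Of 397 genes called at both 0.3 and 3 µM, 13 were called in opposite directions, 9 lower with azacitidine at 0.3 µM and higher at 3 µM, and 4 the reverse. ATF5, a transcription factor of the stress response, gave 433 and 424, 924 and 954, and 927 and 966 with azacitidine, against 594 and 594, 496 and 542, and 490 and 488 with decitabine and 290 and 344 with vehicle. Both drugs were above vehicle at every dose, decitabine further at 0.3 µM (difference -0.44, adjusted p = 0.0124) and azacitidine further at 3 µM (0.91, adjusted p = 2.85e-07). The axon guidance receptor ROBO3 was -0.65 at 0.3 µM and 0.65 at 3 µM, the small Maf factor MAFF -0.37 and 0.59, the activin receptor ACVR2A -0.59 and 0.54, and the transcription activator ABT1 -0.39 and 0.31. The proton pump subunit ATP6V0E2 ran the other way, 0.38 and -0.43.

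**Figure D4:**
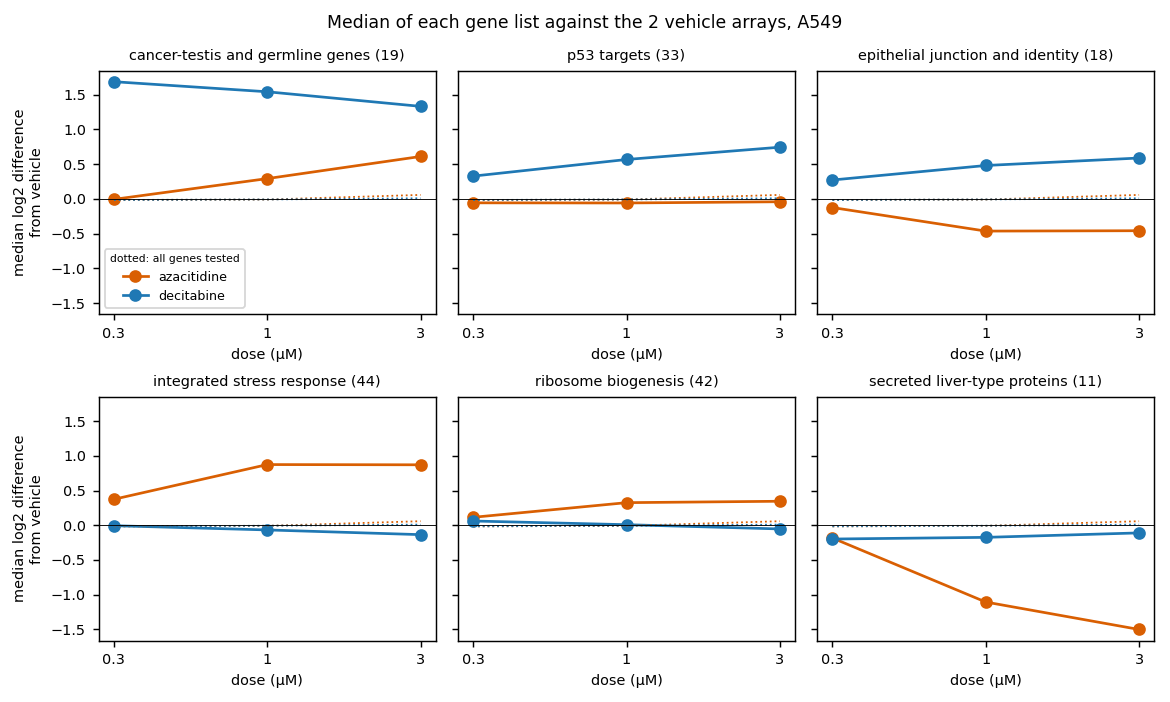
Median log2 difference from the 2 vehicle arrays of 6 gene lists in A549 against dose in µM, azacitidine in orange and decitabine in blue, with dotted lines for all genes tested. The cancer-testis median is that of the 19 members that passed the filter, which may favour those high with decitabine. It is -0.01, 0.29 and 0.61 with azacitidine and 1.69, 1.54 and 1.33 with decitabine. The p53 target median stays between -0.06 and -0.04 with azacitidine.

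The list medians against vehicle showed 3 forms of difference between the drugs. For stress response and secreted genes the distance was on the azacitidine side. The stress median was 0.37, 0.87 and 0.87 with azacitidine at 0.3, 1 and 3 µM and -0.01, -0.07 and -0.14 with decitabine, and the secreted median -0.18, -1.11 and -1.50 with azacitidine and -0.20, -0.17 and -0.11 with decitabine. For p53 targets it was on the decitabine side, with 0.33, 0.57 and 0.74. For epithelial genes it was on both sides, with -0.12, -0.46 and -0.46 for azacitidine and 0.27, 0.48 and 0.59 for decitabine. The filter may favour epithelial members high with decitabine. Both drugs use the same 2 vehicle arrays, so these medians are given side by side without a test.

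The same comparison in H1299, on arrays that share no sample with A549, called 2479 genes higher with azacitidine (30.9%) and 1850 lower (23.1%), or 1875 and 2353 with each array centred on its median. Of 2720 genes called in both lines, 2170 had the same direction and 550 the opposite. Across the 8024 genes the differences in the lines correlated at 0.455, and genes share arrays and are not independent replicates. The drug difference itself differed between A549 and H1299 in 3267 genes (40.7%), 1402 positive and 1865 negative, or 1689 and 1531 with each array centred on its median.

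Stress response genes were higher with azacitidine in 40 of 44 in A549 and lower in 0, against 41 and 1 in H1299. Of all genes tested, 27.9% were higher and 26.5% lower in A549, and 30.9% and 23.1% in H1299. The line difference was called for 40.7% of them. Of the p53 targets, 2 were higher and 25 lower in A549, and 10 higher and 9 lower in H1299, which was near the H1299 shares. The difference between lines was called for 28 of 33, 3 positive and 25 negative. CDKN1A gave 666 and 638, 985 and 958, and 1064 and 1163 with azacitidine in H1299, and 712 and 844, 934 and 821, and 922 and 890 with decitabine, with 452 and 422 in vehicle. The drug difference was -1.28 in A549 and 0.06 in H1299 (interval -0.05 to 0.18), and the 2 differed by -1.34 (adjusted p = 3.84e-11). Ribosome biogenesis genes were higher in 30 and lower in 1 in A549, and higher in 3 and lower in 20 of 42 in H1299, with 35 called for the line difference, all positive. Mitotic genes, 13 higher and 23 lower in A549, were 0 higher and 53 lower of 61 in H1299.

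DAZL was dim in both vehicles and was lower with azacitidine than with decitabine in both lines (-3.33 in A549 and -4.15 in H1299). TDRD12 gave 9.08 to 14.5 in A549 vehicle and 3707 and 3777 in H1299 vehicle, and its drug difference was -2.26 in A549 and 0.58 in H1299, which differed by -2.84 (adjusted p = 5.06e-14). MAGEA4, at 6668 and 6386 in H1299 vehicle, did not pass in H1299 (0.05, interval -0.19 to 0.28). SPANXB1 gave 39.1 and 51.0 in A549 vehicle and 19.8 and 12.3 in H1299 vehicle and did not pass in H1299 (0.23, interval -0.06 to 0.52), and the line difference was -2.48 (adjusted p = 2.97e-09).

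Other large line differences ran both ways. LY6D (-3.19) and AQP3 (-2.48) had the larger decitabine excess in A549, AQP3 being lower with azacitidine in H1299 by -0.70, and LY6D stayed between 1.56 and 6.62 on every H1299 drug array. TAC1, which encodes substance P, gave 1.04 to 13.9 on every A549 array. In H1299 it gave 598 and 524 at 1 µM and 2157 and 2129 at 3 µM with azacitidine, against 26.3 and 13.8 and 40.0 and 20.2 with decitabine (line difference -2.79). GPX1, a glutathione peroxidase, gave 2041 to 3465 on A549 arrays, and in H1299 it gave 12 and 3.08 with azacitidine at 3 µM against 849 and 729 with decitabine (line difference 3.23). The calcium-binding protein S100A6 (2.61) and the LIM protein CRIP1 (2.30) had the same form, bright on every A549 array and higher with decitabine in H1299. CXCL2 had opposite signs, 1.43 in A549 and -0.86 in H1299, a difference of 2.28 (adjusted p = 5.91e-12).

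**Figure D5:**
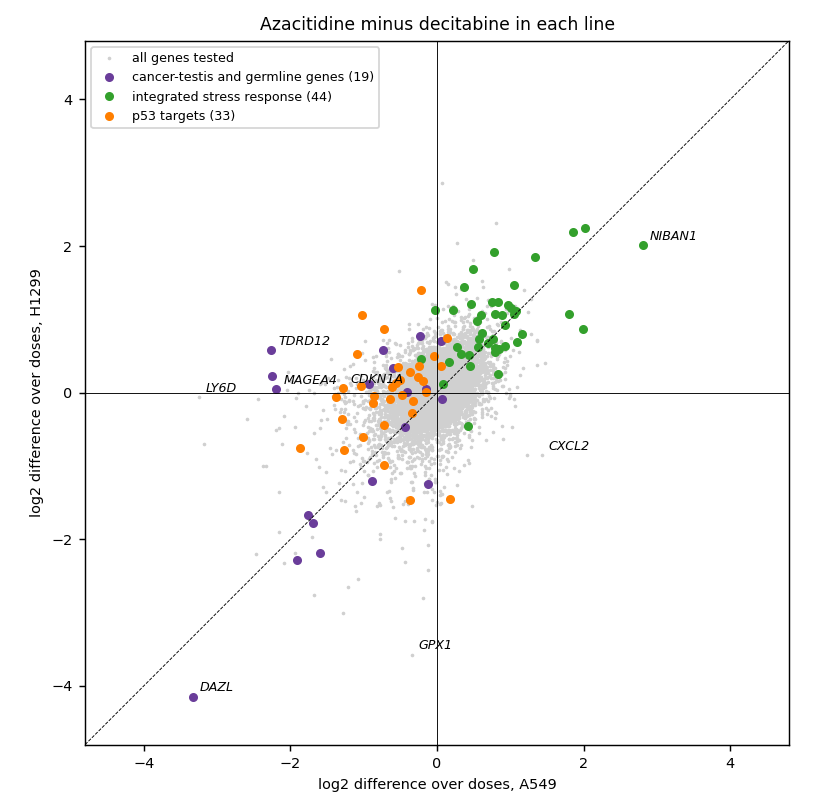
Log2 difference over doses, azacitidine minus decitabine, in H1299 (vertical) against A549 (horizontal) for each of 8016 of the 8024 genes. Cancer-testis genes are in purple, stress response genes in green and p53 targets in orange, and the diagonal marks equal differences. Stress response genes lie mostly right of and above 0, p53 targets lie mostly left of 0 and on both sides of it vertically (CDKN1A at -1.28 and 0.06), and GPX1 (-0.35 and -3.57) lies far below it.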

How the data were processed

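The authors deposited 1 table of MAS5 signal per probe set, a summarised hybridisation intensity on a linear scale, for 28 Affymetrix arrays. The MAS5 step is per the submitters' processing notes, with its version not given. The 2% trimmed mean was 500.125 to 500.159 on each array. No detection calls were used, so signals under an array's 25th percentile carry no call, and the number of arrays limits the precision.

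From the deposited intensity, log2(signal + 32) was computed. Probe sets with 1 gene symbol in the platform annotation (19064 of 22277; 1043 had several and 2108 others none, 62 being controls) were kept where they exceeded the array median on at least 2 of the 28 arrays, which left 11800. Each gene was read by its kept probe set of highest mean, giving 8024 genes. A gene dim in most groups could be kept through a group where it was high. Counts and medians of any list may favour such members. limma 3.58.1 in R 4.3.3 fitted 1 mean per group over all 28 arrays (14 residual degrees of freedom, intensity trend), with Benjamini-Hochberg adjustment over all genes, a threshold of 0.05 and 95% intervals, after a check on simulated data. The dose-blocked comparison had 8 residual degrees of freedom.

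The comparison, the 22 gene lists and the rule for named genes were chosen with earlier results of these data known. The rule took the 12 largest differences each way among genes whose drugs did not overlap at any dose, the 6 largest dose shifts each way, up to 6 genes of opposite sign at 0.3 and 3 µM, 4 members per list, the 5 largest line differences each way and a fixed set for drug handling. 1 gene it took is not reported here. Other named list members, ATF6, HSPA5, CXCL5, and those given where few members passed or did not pass, were chosen after their values were seen. Of 1523 called genes with several kept probe sets, 53 had one called in the opposite direction, SQLE and TNFRSF10B among those named. Replicate numbers gave no clear pairing of the arrays. Deviations of same-numbered azacitidine and decitabine arrays correlated at -0.156 to 0.232 over the 3 doses, with 1 of 3 above 0.1. Among all pairs of A549 drug groups, 6 of 15 were above 0.1 (range -0.217 to 0.249). These few values cannot exclude a pairing. Alternatives were other pseudocounts, filters, normalizations, covariates, blocks and thresholds, and leaving out each A549 array.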

Additional observations from a re-analysis of the deposited data

Results flagged for a closer look

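The difference between azacitidine and decitabine was itself different in A549 and H1299 in 3267 genes, by a limma test of the drug difference in A549 minus that in H1299. Among the genes named for it, values below 0 were found for LY6D (-3.19), TDRD12 (-2.84), TAC1 (-2.79), AQP3 (-2.48) and SPANXB1 (-2.48), and values above 0 for GPX1 (3.23), S100A6 (2.61), CRIP1 (2.30) and CXCL2 (2.28). In A549 the drug difference did not pass for TAC1 or CRIP1, so their line difference rests on H1299.

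The drug difference in A549 was different at 3 and 0.3 µM in 1843 genes, by a test of one minus the other. It was higher at 3 µM for NIBAN1 (3.39), HK2 (2.49), MAGEA4 (2.38), STC2 (2.19), EEF2KMT (2.19) and TRIB3 (2.16). It was lower at 3 µM for AGR2 (-3.47), CDA (-2.88), SERPINF1 (-2.86), GPX2 (-2.80), AQP3 (-2.66) and TSPAN1 (-2.54). EEF2KMT was read by a probe set that can match related sequences, and its azacitidine arrays at 3 µM gave 51.2 and 166.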

How the results depend on the processing

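No called difference of a named gene changed sign under the alternatives run, but the balance of calls did. Centring each array on its median gave more genes lower than higher over doses, at 3 µM, for dose dependence, for azacitidine against vehicle and in H1299, and more positive than negative for the line difference, each the opposite of the reported balance, with the splits given beside those counts. Asking also for a log2 difference of at least 1 left 189 genes between the drugs over doses, 56 at 0.3 µM, 285 at 1 µM, 579 at 3 µM, 293 for dose dependence, 94 for azacitidine against vehicle, 102 for decitabine against vehicle, 196 in H1299 and 251 for the line difference. Adjusting over the 3 doses together gave 892 at 0.3 µM. Leaving out 1 A549 array at a time gave 4059 to 4409 over doses, 173 to 460 at 0.3 µM, 2041 to 2780 at 1 µM, 3142 to 4097 at 3 µM, 1321 to 1885 for dose dependence, 1395 to 2257 for azacitidine against vehicle and 984 to 1951 for decitabine against vehicle. The 0.3 µM count was 173 to 197 without any 1 of its own 4 arrays, and both vehicle counts were lowest without vehicle replicate 1. Without vehicle replicate 1, azacitidine replicate 1 at 3 µM and the repeated decitabine array, a choice made after seeing the data, the counts were 1145 for dose dependence, 1384 for azacitidine against vehicle and 932 for decitabine against vehicle. With the replicate number as a block, though no clear pairing was seen, 4458 genes differed over doses. The counts were then 480, 2834 and 4120 at 0.3, 1 and 3 µM, 4420 in H1299 and 3343 between lines.

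Of 117 named genes, 3112 values over the settings kept their side of the threshold, 22 lost it and 1 gained it. MAFF lost it in 12 settings, SLC29A1 in 4, S100A6 in 2 and ATF5, EEF2KMT, PSMB9 and GPX1 in 1 each, and ROBO3 gained it in 1. The cause was not tested. Signals near an array's 25th percentile limit what can be said of dim genes, whose differences the pseudocount draws toward 0.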

Other observations

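Some of the genes that separated the drugs most in A549 belong to none of the lists. S100A2, a calcium-binding protein, gave 320 and 290, 188 and 213, and 216 and 194 with azacitidine at 0.3, 1 and 3 µM, against 945 and 866, 1330 and 1518, and 1781 and 1977 with decitabine and 346 and 341 with vehicle. Every azacitidine array was below vehicle and every decitabine array above it (difference -2.38, adjusted p = 8.04e-18 by limma). Its neighbour in the family S100A3 (-2.19) and the chloride channel protein CLIC3 (-2.60) were lower with azacitidine too.

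HDAC4, a histone deacetylase, gave 460 and 454, 693 and 801, and 1024 and 1034 with azacitidine, against 308 and 265, 312 and 232, and 235 and 292 with decitabine and 523 and 573 with vehicle. All decitabine arrays were below vehicle, and azacitidine was below it at 0.3 µM and above it at 1 and 3 µM (difference 1.28, adjusted p = 1.12e-08). The same difference was 1.28 in H1299. TSC22D3, a glucocorticoid-induced leucine zipper protein, was above every decitabine and vehicle array with azacitidine at each dose (difference 1.36, adjusted p = 2.22e-10).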
